A study of Mus musculus with 42 samples.

Results

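The small leucine-rich proteoglycans described here are 7 secreted proteins, decorin (Dcn), lumican (Lum), biglycan (Bgn), fibromodulin (Fmod), osteoglycin (Ogn), prolargin (Prelp) and asporin (Aspn). They were taken by name from a table of 21674 genes, and all 7 were in it. The family was chosen by its name with measured fold changes of these data known, among them the level of Fmod after anti-GPIba, so the levels given for that gene are a description. RNA was flushed from the inner layer (intima) of mouse carotid arteries after partial carotid ligation, which lowers flow in 1 carotid and raises it in the contralateral one. At 48 hr, intimal RNA of untreated C57BL/6J mice, male and 6 to 7 weeks old, gave 3 pools each of low-flow, contralateral high-flow and sham-operated carotids, and each pool combined 3 to 5 flushes. Other male C57BL/6J mice of the same age received platelet-depleting anti-GPIba, anti-Gr1 or control IgG, or macrophage-depleting clodronate liposomes or PBS liposomes, and 2 low-flow libraries came from each treatment, with 1 further low-flow pool each after clodronate and PBS liposomes read at 100 bp, and 2 high-flow libraries from each of the controls IgG and PBS liposomes. At 7 d, EC-KO mice carried an inducible Cre driven by the endothelial Cdh5(PAC) promoter, the mTmG reporter and Rbfox2 lox/lox, and control mice carried mTmG and Rbfox2 lox/lox without Cre. These mice were males and females of 2 to 7 months, and each genotype gave 3 low-flow and 2 high-flow libraries. Cultured cells gave 1 library each, from an aortic endothelial line immortalised with an inducible SV40 antigen and from 3 primary aortic endothelial preparations, of which 1 was sorted on eGFP and the control and EC-KO preparations on CD31 and Icam2. The line was left untreated or cultured for 48 hr with plasma at 10%, with platelets plus macrophages, or with plasma, platelets and macrophages together. Pools were the replicates, so p-values measure the spread between pools.

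Proteins of this family have a core of leucine-rich repeats, and most of them bind fibrillar collagen and set the width and spacing of its fibrils. Decorin and biglycan carry chondroitin or dermatan sulfate chains, lumican, fibromodulin and prolargin belong to the branch that can carry keratan sulfate, and asporin has a stretch of aspartates in place of a chain. Several members also bind TGF-beta or, once released from matrix, signal through Toll-like receptors. In the artery wall they are made by fibroblasts of the adventitia and by smooth muscle cells, and endothelial cells make biglycan.

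The genes lie in clusters of the mouse genome (mm9). Dcn spans chr10:96942245-96980777 and Lum, its neighbour, chr10:97028135-97035337, both on the plus strand. Prelp lies on the minus strand of chr1:135806881-135817991 and Fmod on the plus strand of chr1:135933831-135944854. Aspn, at chr13:49639812-49662926, and Ogn, at chr13:49703440-49719869, are both on the plus strand of a cluster that also holds Ecm2 and Omd. Bgn is alone on the X chromosome, at chrX:70728941-70741272 on the plus strand.

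Promoter sequences of RefSeq (GRCm38.p6) were at hand for 5 of the 7 genes, and those of Bgn, Ogn and Aspn are shown because these genes passed the test in comparisons of low with high flow. The 120 bases before the start site are given 5′ to 3′ on the plus strand, for Bgn at chrX:73483481-73483600, for Ogn at chr13:49607895-49608014 and for Aspn at chr13:49544323-49544442. Capitals mark matches to the GC box GGGCGG or its reverse complement CCGCCC, the TATA box TATAAA or TTTATA, and the CCAAT box CCAAT or ATTGG.
Bgn: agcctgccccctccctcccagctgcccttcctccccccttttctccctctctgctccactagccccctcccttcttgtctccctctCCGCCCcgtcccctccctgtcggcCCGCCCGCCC
Ogn: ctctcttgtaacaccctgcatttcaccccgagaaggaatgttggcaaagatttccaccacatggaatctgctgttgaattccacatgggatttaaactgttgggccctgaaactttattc
Aspn: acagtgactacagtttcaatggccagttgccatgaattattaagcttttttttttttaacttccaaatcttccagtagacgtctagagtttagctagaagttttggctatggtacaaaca
Over the 250 bases before the start, Bgn was 64.4% G and C, above 81.6% of 32851 promoters, and held 3 matches to the GC box, of which 2 overlap. Ogn was 42% G and C, above 15.9% of promoters, and Aspn 30%, above 1.47%. Each held 2 matches to the TATA box, and Aspn 1 to the CCAAT box, all outside the 120 bases shown. A GC box on either strand was found in 32.7% of all promoters, a TATA box in 12.4% and a CCAAT box in 33.8%. These matches describe letters in the window.

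Levels are given as FPKM, counts per base of effective length scaled to the library's total count on genes (the usual fragments per kilobase unit), so they can be compared between genes. Depth was 4064477 to 6794904 counts in the untreated pools, 12286104 to 19035957 in the depletion libraries and 10318685 to 18633538 at 7 d. Bgn was the most abundant member in all but 1 of the 35 artery libraries, with 333 to 4142 FPKM and a median of 978. Dcn followed with 10.1 to 1054 FPKM (median 72.7) and Lum with 4.19 to 353 (median 17.9). Prelp had a median of 6.79 FPKM, Ogn of 5.09 and Aspn of 1.36. Fmod had no counts in 17 of the 35 libraries and at most 3 counts in 24, and its highest level was 0.725 FPKM. Bgn made up between 28.8% and 98.2% of the summed FPKM of the 7 genes, the lowest share being that of EC-KO low-flow library 4, in which Dcn exceeded it with 50.6%.

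**Figure D1:**
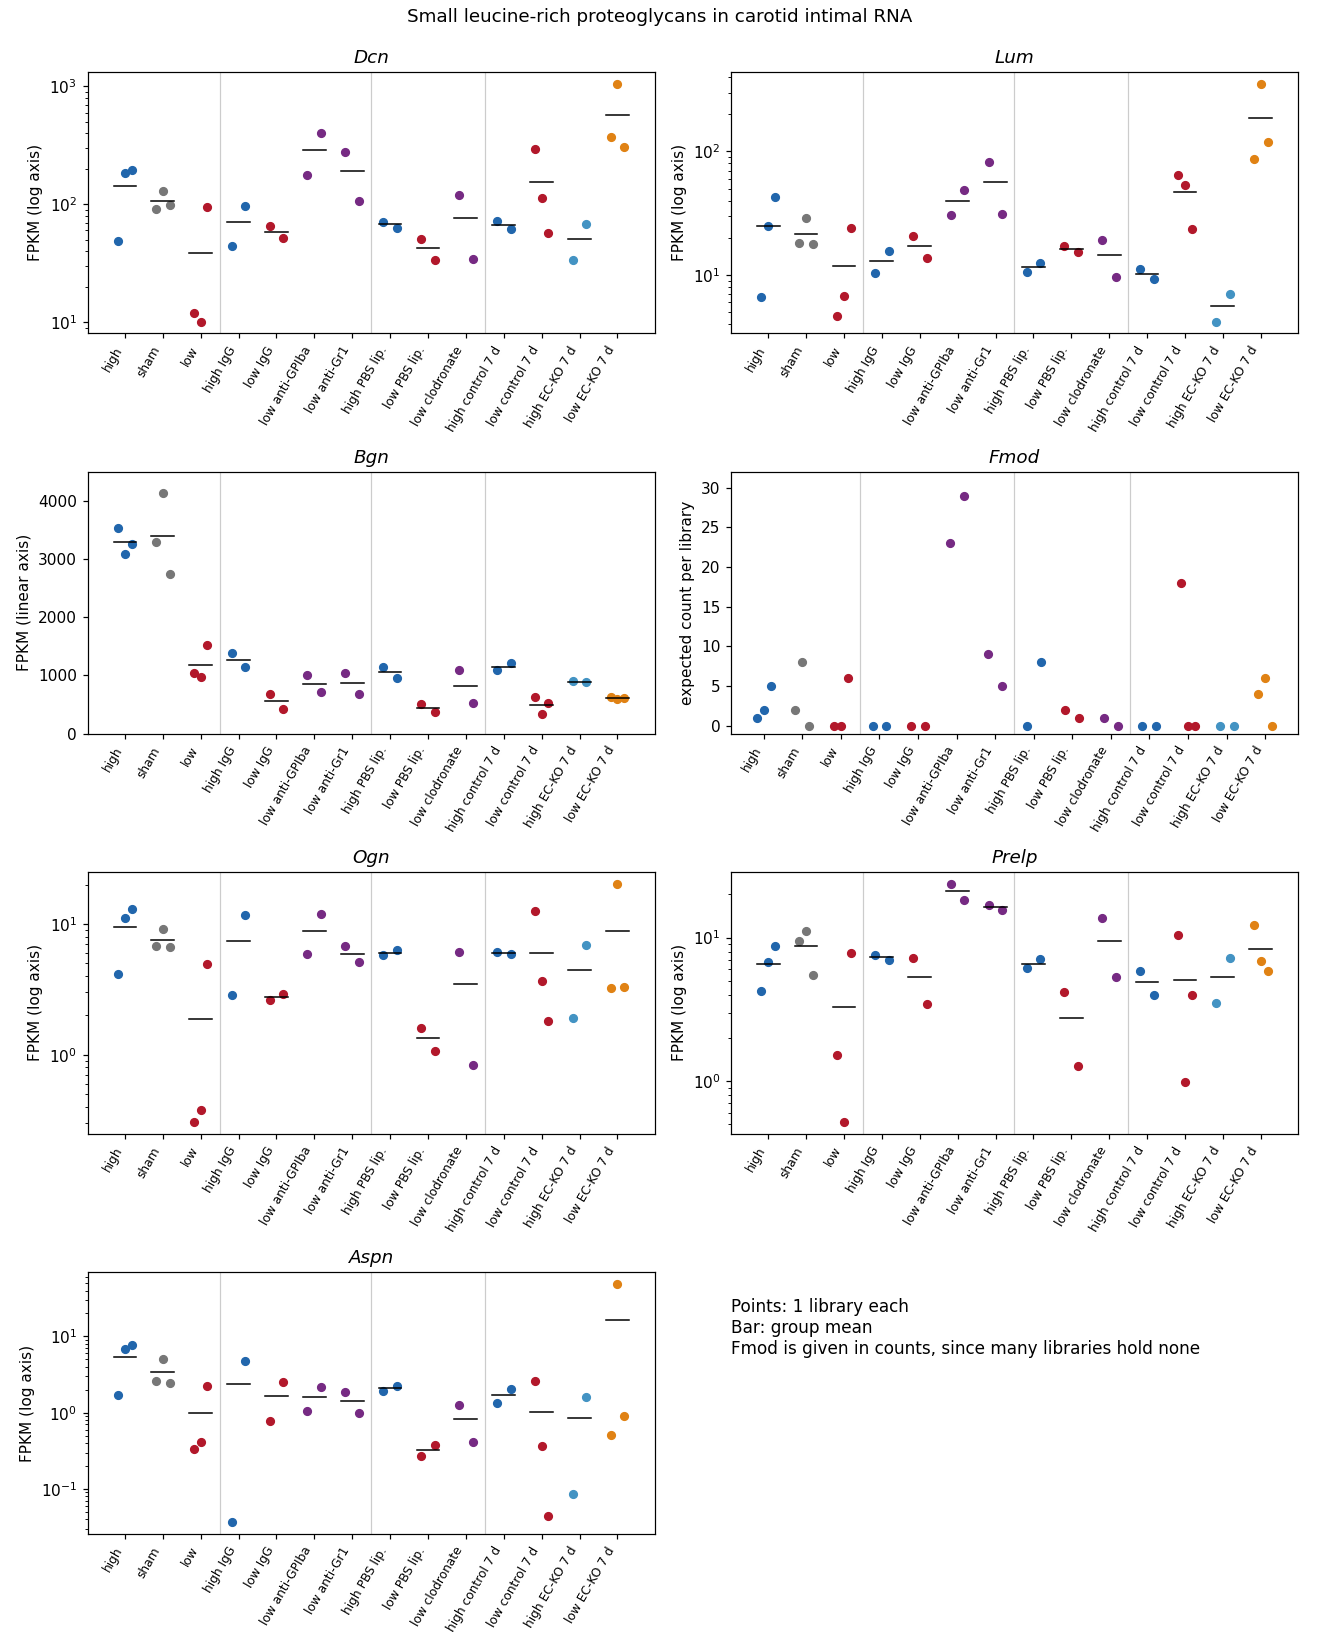
Level of each gene in every carotid library of the 14 compared groups in FPKM (log axis, linear axis for Bgn), and for Fmod in counts, by group, with 1 point per library and a bar at the group mean. Bgn sits lower in each low-flow control group than in its high-flow group, while Dcn and Lum reach their highest points, 1054 and 353 FPKM, in EC-KO low-flow library 4.

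Low-flow pool C stood apart from low-flow pools A and B for most of these genes. The TMM scaling factor, which corrects for a few genes taking much of a library, was 0.570 in pool A and 0.550 in pool B, and 1.12 to 1.27 in pool C and the 6 high-flow and sham pools. Without this scaling the median change of all genes between low and high flow moved from −0.07 to −0.69 on the log2 scale. In the depletion experiment the low-flow libraries share a January run and the high-flow libraries a June run by the read file names, so flow and run cannot be told apart there, whereas depleted and control low-flow libraries have the run in common. Both 7 d low-flow libraries numbered 1 come from another run than the rest of the 7 d libraries. The targeted gene Rbfox2 had 0.169 to 1.09 FPKM in the 5 EC-KO libraries and 2.74 to 5.73 in the 5 control libraries, with no overlap.

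To ask how low flow relates to this family, the untreated pools were compared first. Ogn and Aspn, of 1 cluster on chromosome 13, fell at low flow, and the other tested members were lower without passing the test. Of the 6 members tested by edgeR's quasi-likelihood test with Benjamini-Hochberg adjustment, 2 passed an adjusted p of 0.05, both lower, where 46.2% of the 11236 genes tested were called, 22.6% lower and 23.6% higher. With Dcn, 3 had an unadjusted p under 0.05, as did 53.7% of genes. The median log2 change of the 6 was −1.17, beside −0.07 for all genes. Fmod, with 0, 0 and 6 counts at low flow and 1, 2 and 5 at high flow, did not pass the filter on low counts.

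Ogn, also known as mimecan, was at 0.307, 0.376 and 4.98 FPKM in low-flow pools A, B and C, at 4.11, 11.2 and 12.97 at high flow, and at 6.83, 9.24 and 6.67 in sham pools. Pool C overlapped the lowest high-flow pool, and the fall was 1.88 on the log2 scale (log2 fold-change −1.88, SE 0.61, adjusted p = 0.0267 by edgeR). Aspn, a collagen-binding protein that also binds TGF-beta, was at 0.334, 0.408 and 2.23 FPKM at low flow, 1.70, 6.77 and 7.69 at high flow, and 2.58, 5.13 and 2.42 in sham pools. Its log2 fold-change was −1.91 (SE 0.56, adjusted p = 0.0179 by edgeR). Both calls were lost when pool A, B, E or F was left out, with an adjusted p by edgeR of up to 0.0908 for Ogn and 0.0687 for Aspn. Without pool C the log2 fold-changes were −3.73 for Ogn and −2.81 for Aspn.

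Dcn was at 11.9, 10.1 and 94.1 FPKM in the low-flow pools and at 48.7, 184 and 195 at high flow. The level in pool C lay above the lowest high-flow pool, and the log2 fold-change of −1.55 (SE 0.60) had an adjusted p of 0.0541 by edgeR. Without pool C it was −2.62 with an adjusted p of 0.00193 by edgeR, and without high-flow pool D −1.92 with 0.0208. It was also called without a filter on low counts (adjusted p = 0.00153 by edgeR), with the 3 untreated groups fitted together (adjusted p = 0.0468) and with library totals (adjusted p = 8.75e-06), but not by DESeq2. Lum was at 4.65, 6.76 and 24.1 FPKM at low flow and 6.69, 25.1 and 42.8 at high flow, and Prelp at 1.53, 0.521 and 7.87 against 4.28, 6.79 and 8.74. For both genes pool C lay within the high-flow range, and their log2 fold-changes of −0.58 and −0.56 did not pass the test. Leaving out pool C gave 5 called members, Dcn, Bgn, Ogn, Prelp and Aspn, all lower, where 23.5% of genes were called lower and 24.2% higher.

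Bgn was the only member whose untreated low-flow and high-flow pools did not overlap. It was at 1049, 978 and 1520.4 FPKM at low flow, at 3539, 3090.3 and 3269.7 at high flow, and at 3303, 4142 and 2753 in sham pools. Of the genes tested, 39.4% were lower without overlap and 12.2% higher without overlap on this scale. With TMM scaling the log2 fold-change was −0.79 (SE 0.47, adjusted p = 0.190 by edgeR), and with library totals alone it was −1.48 (adjusted p = 2.93e-08 by edgeR), on a scale where the median gene moved by −0.69. DESeq2 called it as well, at −0.74 with an adjusted p of 0.00517. Whether Bgn counts as changed in these pools therefore rested on the scaling and the tool, while its direction did not.

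Against sham arteries, 0 of 6 members passed at low flow, where 40.3% of genes did, 20.6% higher and 19.7% lower. The low-flow levels of Bgn, Ogn and Aspn lay below all 3 sham pools, where 41.1% of genes were lower without overlap and 7.49% higher. The log2 fold-changes were −1.53 for Ogn (adjusted p = 0.0630 by edgeR), −1.19 for Aspn (adjusted p = 0.0810) and −0.78 for Bgn (adjusted p = 0.235). Ogn and Aspn were the 2 members with an unadjusted p under 0.05, beside 50.9% of genes. DESeq2 called 2 members, Bgn and Ogn, beside 4257 genes, 23.9% of those it gave a p. Without low-flow pool C, 4 members were called lower, Dcn, Ogn, Prelp and Aspn, as were 20.6% of genes, with 21.2% higher. Both comparisons use the same low-flow pools. Between high flow and sham itself, 0 of 6 members and 0% of genes were called, with 7.87% of genes and no member at an unadjusted p under 0.05 by edgeR. DESeq2 called 101 genes and no member. All 6 members overlapped, where 4.29% of genes were higher and 8.52% lower without overlap, and the log2 change of Bgn was 0.02 (SE 0.18). It was 0.46 for Dcn, 0.24 for Lum, 0.36 for Ogn, −0.34 for Prelp and 0.73 for Aspn, and Fmod, with 2, 8 and 0 counts in sham pools, was not tested.

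Bulk RNA cannot tell fewer cells of a type from less RNA per cell. Markers of fibroblasts were lower in the untreated low-flow pools than in the high-flow and sham pools. They held 0.00693% to 0.0265% of counts at low flow, 0.117% to 0.140% at high flow and 0.0714% to 0.0936% in sham pools, and 6 of the 8 tested fell, among them Mfap5, Pi16 and Dpt. Pool C had the highest share of the low-flow pools. Among the high-flow pools D held 0.133% and F 0.117%, while Dcn, Lum, Ogn, Prelp and Aspn were lowest in D and highest in F. Smooth muscle markers held 0.246% to 0.470% at low flow and 0.0729% to 0.0871% at high flow, macrophage markers 0.230% to 0.343% and 0.00624% to 0.0145%, and neutrophil markers 0.02504% to 0.0501% and 0.000705% to 0.00210%. Single smooth muscle markers went both ways, with Acta2, Tagln, Myl9, Cald1 and Smtn called higher and Synpo2 and Mylk lower. Endothelial markers held 0.405% to 0.544% at low flow and 0.956% to 1.14% at high flow. Fat markers held 0.00103% to 0.00256% at low flow and 0.0150%, 0.0380% and 0.179% in high-flow pools D, E and F, and all 6 that were tested fell. None of the 11 fibroblast markers in the table was at 0 in all 3 pools of an untreated group. The part of these cells in the levels was not tested.

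The control mice of the depletion experiment asked the same question of flow, in libraries where flow and run are joined. Bgn fell at low flow in both sets. After IgG it was at 674 and 430.2 FPKM at low flow and at 1382 and 1151 at high flow, and the log2 fold-change was −1.28 (SE 0.37, adjusted p = 0.0178 by edgeR). After PBS liposomes it was at 515 and 370.0 FPKM against 1151 and 962, with a log2 fold-change of −1.15 (SE 0.37, adjusted p = 0.0320 by edgeR). High-flow and low-flow libraries did not overlap in either set. Bgn was the only member called in each. edgeR called 40.5% of genes after IgG, 17.7% lower and 22.8% higher, and 35.0% after PBS liposomes, 15.5% lower and 19.6% higher. At an unadjusted p under 0.05 by edgeR, Bgn was the only member after IgG, beside 50.6% of genes. After PBS liposomes it was joined by Ogn, beside 45.9% of genes. Fmod is left out of these statements, since it passed the filter on low counts through the anti-GPIba libraries. The IgG call was lost without high-flow library 1 or low-flow library 2, and the PBS call without any 1 of its 4 libraries, with log2 fold-changes from −0.91 to −1.41.

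The other members differed between the control sets. After PBS liposomes Ogn was at 1.61 and 1.08 FPKM at low flow and 5.75 and 6.28 at high flow (log2 fold-change −2.05, adjusted p = 0.0704 by edgeR). Aspn was at 0.269 and 0.382 FPKM against 1.90 and 2.25, and Prelp at 4.21 and 1.28 against 6.12 and 7.05. Dcn was at 51.2 and 33.7 FPKM against 71.3 and 63.5. These 4 genes and Bgn were lower without overlap, where 38.9% of genes were, and Lum, at 17.2 and 15.3 FPKM against 10.7 and 12.5, was higher without overlap, where 36.5% of genes were. After IgG none but Bgn was separated, since high-flow library 1 had 2.89 FPKM of Ogn and 0.0369 of Aspn while library 2 had 11.8 and 4.70. Bgn was lower without overlap there beside 31.4% of genes, and 42.7% were higher. Fibroblast markers held 0.0203% to 0.0264% of counts at low flow and 0.0772% to 0.0904% at high flow after IgG, and 0.0144% to 0.0157% and 0.0656% to 0.0693% after PBS liposomes. Endothelial markers held 0.476% to 0.633% at low flow and 1.92% to 1.96% at high flow after IgG, and 0.453% to 0.460% and 1.12% to 1.52% after PBS liposomes. The summed share of smooth muscle markers was higher at low flow, with 0.476% to 0.514% against 0.0766% to 0.105% after IgG and 0.337% to 0.651% against 0.0770% to 0.122% after PBS liposomes. That of macrophage markers was too, with 0.225% to 0.256% against 0.00624% to 0.0252% after IgG and 0.135% to 0.234% against 0.0104% to 0.0196% after PBS liposomes. Single smooth muscle markers went both ways, since in both sets Acta2, Tagln and Myl9 were called higher and Synpo2 lower. The part of these cells in Bgn and the other levels was not tested. With the replicate number as a block, which may stand for shared mice, 5 members were called lower after PBS liposomes, Dcn, Bgn, Ogn, Prelp and Aspn, where that fit called 23.9% of genes lower and 28.1% higher.

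The effect of depleting blood cells was asked at low flow. After anti-GPIba, an antibody to a platelet receptor that removes platelets, Dcn and Prelp rose over IgG, and Fmod had counts where IgG libraries had none. Of the 6 members other than Fmod, which is taken up below as a description, 2 were called by edgeR, both higher, where 16.5% of the 13401 genes tested were called, 6.05% higher and 10.5% lower. With Lum, 3 of the 6 had an unadjusted p under 0.05, as did 36.7% of genes. Dcn, Lum, Bgn, Ogn and Prelp were higher without overlap, where 35.9% of genes were higher without overlap and 38.4% lower.

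Dcn was at 176 and 404 FPKM after anti-GPIba and at 65.5 and 51.5 after IgG. Both depleted libraries lay above both controls and above both IgG high-flow libraries, at 43.9 and 97.7, and the log2 fold-change was 2.28 (SE 0.63, adjusted p = 0.0371 by edgeR). Prelp, which binds collagen and the heparan sulfate of basement membranes, was at 23.6 and 18.4 FPKM against 7.20 and 3.47 (log2 fold-change 1.95, SE 0.54, adjusted p = 0.0373 by edgeR). No other artery library reached these levels. Lum was at 30.5 and 48.6 FPKM against 20.8 and 13.6 (log2 fold-change 1.17, adjusted p = 0.0842 by edgeR), and Ogn at 5.93 and 11.9 against 2.61 and 2.94 (1.65, adjusted p = 0.154). Bgn was at 999.7 and 722 FPKM against 674 and 430.2, below both IgG high-flow libraries, with a log2 fold-change of 0.61 (adjusted p = 0.241 by edgeR). Aspn, at 1.05 and 2.18 FPKM against 0.771 and 2.53, overlapped. More members were called by edgeR under other fits. With Fmod counted there were 5 with the 2 groups alone (34.5% of genes) and 6 with the replicate number as a block (32.8%).

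Fmod, whose keratan sulfate protein binds collagen and guides its cross-linking, had 23 and 29 counts after anti-GPIba (0.480 and 0.591 FPKM) and 0 in both IgG low-flow and both IgG high-flow libraries. It was at least 7.98-fold higher than the level that 3 counts per library would give. This gene was known from earlier results and passed the filter on low counts through the anti-GPIba libraries, so its value is a description. The calls of Dcn and Prelp were lost without any 1 of the 4 libraries, with log2 fold-changes from 1.56 to 2.76 for Dcn and from 1.53 to 2.56 for Prelp, where these fits called 0.00719% to 0.638% of genes. With reads trimmed to 100 bp Prelp was at 2.07 with an adjusted p of 0.0551 by edgeR, and DESeq2 called Lum too, at 1.19 with an adjusted p of 0.0421. Macrophage markers held 0.0188% to 0.0257% of counts after anti-GPIba and 0.225% to 0.256% after IgG, and 10 of these markers fell. Smooth muscle markers held 0.0913% to 0.133% and 0.476% to 0.514%, endothelial markers 1.11% to 1.12% and 0.476% to 0.633%, and fibroblast markers 0.0282% to 0.0431% and 0.0203% to 0.0264%. Of the 10 fibroblast markers tested 1 rose, Dpep1, and Tcf21 was at 0 in both anti-GPIba libraries. Of the 9 platelet markers Ppbp was called lower (log2 fold-change −4.49) and Gp1ba higher (1.39), and the others were not called. Neutrophil markers held 0.000663% to 0.00115% and 0.0137% to 0.0389%, and thyroid markers, of tissue that lies near the carotid, 5.66e-06% to 4.43e-05% and 6.83e-05% to 0.00602%. The part of these cells in the change of Dcn and Prelp was not tested.

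After anti-Gr1, an antibody to a surface antigen of neutrophils and some monocytes, no member passed the test, and Dcn, Lum, Bgn, Ogn and Prelp were higher without overlap. The IgG libraries are shared by this comparison and that of anti-GPIba. Dcn was at 278 and 107 FPKM, Lum at 82.5 and 31.3, Prelp at 17.0 and 15.6, and Bgn at 1046 and 681. All of these lay above both IgG libraries, as did Ogn at 6.81 and 5.09, while Aspn, at 1.88 and 0.979 against 0.771 and 2.53, overlapped, and Fmod had 9 and 5 counts, at least 2.27-fold above the level of 3 counts. Of all genes 21.1% were higher without overlap and 30.0% lower. Log2 fold-changes were 1.72 for Lum (SE 0.45, unadjusted p = 0.00276, adjusted p = 0.243 by edgeR), 1.71 for Dcn and 1.63 for Prelp. edgeR called no member and 0% of all genes here. By the same test Dcn, Lum and Prelp, 3 of the 6 members other than Fmod, were under 0.05 before adjustment, and so were 18.1% of genes. DESeq2 called Lum as the only member, among 142 genes. With the replicate number as a block edgeR called 3 members, beside 7.10% of genes. Neutrophil markers held 0.00200% to 0.00385% of counts after anti-Gr1 and 0.0137% to 0.0389% after IgG, and macrophage markers 0.107% to 0.127% and 0.225% to 0.256%. Endothelial markers held 0.846% to 0.988% and 0.476% to 0.633%, and fibroblast markers 0.0261% to 0.0371% and 0.0203% to 0.0264%. Their part in these levels was not tested.

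Clodronate liposomes, which kill phagocytes, left no member called over PBS liposomes, beside 0.119% of genes called, all lower. Bgn was at 1097 and 525 FPKM after clodronate and 515 and 370.0 after PBS liposomes, and Prelp at 13.6 and 5.30 against 4.21 and 1.28. The groups of these genes and of Aspn did not overlap, as for 30.5% of genes that were higher without overlap and 21.0% that were lower, and clodronate library 1 was above library 2 for each member. The log2 fold-change of Prelp was 1.67 (SE 0.54, unadjusted p = 0.0106, adjusted p = 0.239 by edgeR), and it was the only member at an unadjusted p under 0.05, beside 14.9% of genes. DESeq2 called 462 genes and no member. Dcn, at 119 and 34.7 FPKM against 51.2 and 33.7, and Lum, at 19.2 and 9.69 against 17.2 and 15.3, overlapped. Ogn did too, at 6.12 and 0.836 FPKM against 1.61 and 1.08 (log2 fold-change 1.25, adjusted p = 0.469 by edgeR). Aspn was at 1.24 and 0.407 FPKM against 0.269 and 0.382 (1.22, adjusted p = 0.677), and Fmod had 1 and 0 counts against 2 and 1. A pool of each treatment read at 100 bp in another run gave 1289 FPKM of Bgn after clodronate and 845 after PBS liposomes, and 5.59 and 1.72 of Prelp. Fibroblast markers held 0.0173% to 0.0404% of counts after clodronate and 0.0144% to 0.0157% after PBS liposomes, endothelial markers 0.677% to 1.01% and 0.453% to 0.460%, and macrophage markers 0.0219% to 0.0232% and 0.135% to 0.234%, each without overlap. Smooth muscle markers, at 0.288% to 0.308% and 0.337% to 0.651%, were lower after clodronate without overlap. The part of these cells in the levels of Bgn, Prelp and Aspn was not tested.

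**Figure D2:**
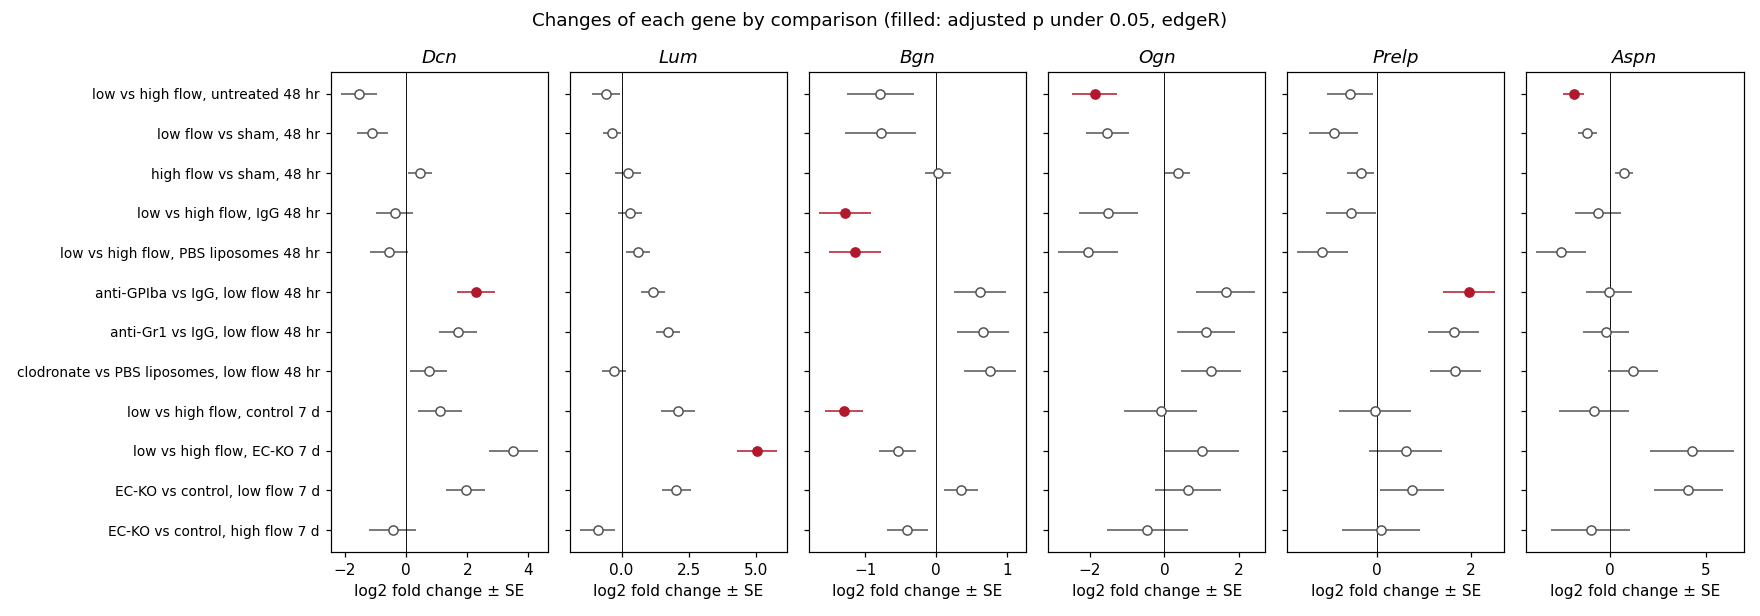
Log2 fold-change of each gene with its SE in 12 comparisons, with filled points where edgeR gave an adjusted p under 0.05. Bgn lies left of 0 in each comparison of low flow with high flow or sham, from −0.54 to −1.29, and Dcn and Prelp are filled for anti-GPIba alone. Fmod is left out, because its fold depends on groups without counts.

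At 7 d, Bgn fell at low flow in control mice, and Lum rose in EC-KO mice. Bgn was 1 of 6 members called in controls, where edgeR called 2.40% of the 13352 genes tested, 1.44% lower and 0.959% higher. It was at 637, 333 and 522 FPKM in the 3 control low-flow libraries and at 1087 and 1207 at high flow (log2 fold-change −1.29, SE 0.27, adjusted p = 0.0419 by edgeR). The groups did not overlap, as for 15.6% of genes that were lower without overlap. The call was kept without control low-flow library 1 and lost without any 1 of the other 4, with an adjusted p by edgeR of up to 0.329. It was lost too with library totals, where edgeR called 1.87% of genes, and with the 2 control groups alone, where edgeR called 0.0234%. In EC-KO mice Bgn was at 636, 600.1 and 619 FPKM at low flow and at 902 and 888 at high flow, again without overlap, and its log2 fold-change of −0.54 had an adjusted p of 0.352 by edgeR.

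Lum, a keratan sulfate protein that regulates collagen fibrils in cornea and skin, was at 87.6, 353 and 119.5 FPKM in EC-KO low-flow libraries and at 4.19 and 7.06 at high flow. Every low-flow library was more than 10 times the high-flow ones, and the log2 fold-change was 5.05 (SE 0.75, adjusted p = 0.0192 by edgeR). It was 1 of 6 members called, where edgeR called 1.09% of genes in these mice, 0.352% higher and 0.741% lower. The call was lost without high-flow library 4 or 5 or low-flow library 5, with log2 fold-changes from 4.16 to 5.52. In control mice Lum was at 64.5, 53.3 and 23.4 FPKM at low flow and 11.2 and 9.25 at high flow. These groups did not overlap, as for 24.1% of genes that were higher without overlap, and the log2 fold-change was 2.11 (SE 0.65, adjusted p = 0.0862 by edgeR). Whether it passed rested on the fit, since it was called by DESeq2 (2.13, adjusted p = 0.00438), with the replicate number as a block (1.76, adjusted p = 0.00188 by edgeR) and without the libraries numbered 1 (1.83, adjusted p = 0.0441 by edgeR).

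Dcn lay beside Lum. In EC-KO mice it was at 372, 1054 and 305 FPKM at low flow and at 33.8 and 67.4 at high flow, without overlap, beside 21.1% of genes that were higher and 22.5% that were lower without overlap. The log2 fold-change was 3.51 (SE 0.81, adjusted p = 0.0750 by edgeR), and it was called by DESeq2 (3.55, adjusted p = 6.73e-06) and by edgeR with both EC-KO groups alone (adjusted p = 0.0255), without a filter on low counts (adjusted p = 0.0482) and without the libraries numbered 1 (adjusted p = 0.0178). In control mice it was at 297, 114 and 57.0 FPKM against 72.7 and 61.6, where control library 5 lay below both high-flow libraries, and the log2 fold-change was 1.11 (adjusted p = 0.363 by edgeR). EC-KO low-flow library 4 stood apart from the other EC-KO libraries in several members, with 48.5 FPKM of Aspn where the others had 0.511 and 0.915, and 20.3 of Ogn where they had 3.23 and 3.28. Without it, the log2 fold-changes of low against high flow in EC-KO mice were 2.70 for Dcn, −0.33 for Aspn and −0.50 for Ogn. Prelp was at 12.2, 6.88 and 5.84 FPKM in EC-KO and 10.4, 0.988 and 3.95 in control low-flow libraries, and 3.50 to 7.19 in the 4 high-flow libraries. Fmod had 0 counts in all 4 high-flow libraries, 18, 0 and 0 in control and 4, 6 and 0 in EC-KO low-flow libraries.

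Whether loss of Rbfox2 from endothelium goes with another level of these genes was asked at each flow. At low flow 0 of 6 members and 0% of genes were called between EC-KO and control. Dcn and Lum were the members whose EC-KO libraries all lay above all control libraries, where 3.54% of genes were higher without overlap and 4.37% lower. Log2 fold-changes were 2.05 for Lum (SE 0.55, unadjusted p = 0.00396, adjusted p = 0.692 by edgeR) and 1.95 for Dcn (SE 0.64, unadjusted p = 0.0125, adjusted p = 0.692), and 3 members, with Aspn, and 6.59% of genes had an unadjusted p under 0.05. DESeq2 called 11 genes and no member. Without control low-flow library 1 both were called by edgeR, with log2 fold-changes of 2.79 for Dcn (adjusted p = 0.0253) and 2.32 for Lum (adjusted p = 0.0466), where 5.57% of genes were called in each direction. Without EC-KO low-flow library 4 they were 1.15 for both genes (adjusted p = 0.936), and Aspn, which that library alone placed high, turned to −0.48. At high flow 0 of 6 members and 0.00749% of genes were called. Lum and Bgn lay lower in EC-KO without overlap, beside 15.3% of genes that were lower and 23.1% that were higher without overlap. The test of the difference itself, flow by genotype, called 0 members and 0% of genes, with 4.03% of genes and 2 members at an unadjusted p under 0.05. By DESeq2 there were 21 genes called and no member. For Lum the change with flow was larger in EC-KO by 2.94 on the log2 scale (SE 0.87, unadjusted p = 0.00692, adjusted p = 0.986 by edgeR) and for Dcn by 2.39 (SE 1.00, unadjusted p = 0.0374, adjusted p = 0.986). Without EC-KO low-flow library 4 these differences were 2.05 for Lum and 1.59 for Dcn. Fibroblast markers held 0.0127% to 0.0335% of counts in control and 0.0137% to 0.0341% in EC-KO low-flow libraries, and 0.0495% to 0.0629% at high flow, so their share was lower at low flow in both genotypes. Macrophage markers held 0.0330% to 0.183% and 0.0758% to 0.160% at low flow, and 0.00513% to 0.0127% and 0.00738% to 0.00874% at high flow. Smooth muscle markers held 0.152% to 0.196% in control and 0.132% to 0.181% in EC-KO low-flow libraries, against 0.0480% to 0.0572% and 0.0423% to 0.0520% at high flow. Endothelial markers held 0.554% to 1.15% and 0.827% to 0.993% at low flow, against 1.69% to 1.78% and 1.81% to 1.89%. The part of these cells in the changes of Bgn, Lum and Dcn at 7 d was not tested.

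**Figure D3:**
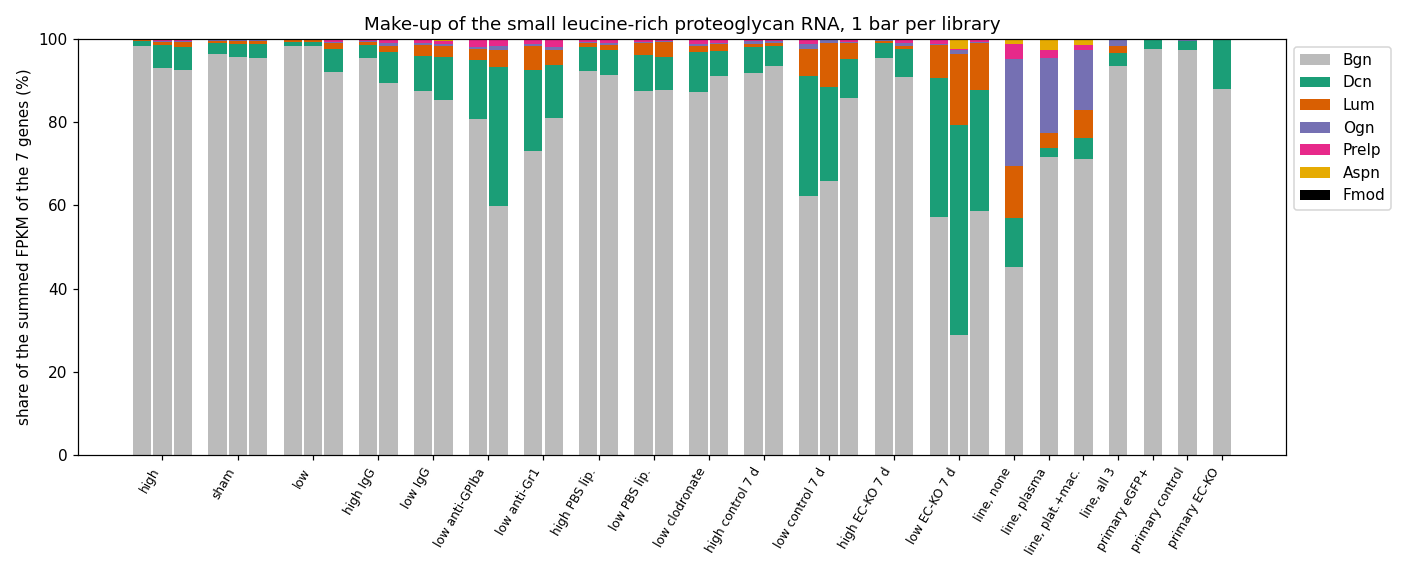
Make-up of the summed FPKM of the 7 genes in percent, 1 bar per library, in arteries and in cultured cells. Bgn holds most of each bar except in EC-KO low-flow library 4, at 28.8%, and in the untreated cell line, at 45.1%.

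The make-up of the sum of the 7 genes differed between sets. In the untreated pools Bgn held 91.9% to 98.2% of it. At 7 d it held 90.8% to 95.4% in the 4 high-flow libraries, 62.2%, 65.9% and 85.8% in control and 57.2%, 28.8% and 58.8% in EC-KO low-flow libraries. Dcn took 9.38% to 29.0% in control and 29.0% to 50.6% in EC-KO low-flow libraries. The times of 48 hr and 7 d came from mice of other age, genotype and sequencing runs, and the difference between them was not tested.

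Across the 35 artery libraries the members did not vary as 1 group. On the scale of log2(FPKM + 1), Pearson's r was 0.898 between Dcn and Lum, 0.800 between Ogn and Aspn, 0.791 between Dcn and Ogn, 0.0223 between Dcn and Bgn and −0.192 between Lum and Bgn. Dcn and Lum are neighbours in the genome, and Ogn and Aspn lie in 1 cluster. Prelp and Fmod, both on chromosome 1, had an r of 0.594, and Dcn and Prelp, on different chromosomes, 0.677. Dcn and Lum kept r at 0.912 in the untreated pools, 0.866 in the depletion libraries and 0.947 at 7 d. Dcn and Bgn had 0.814, 0.402 and −0.38 in these 3 sets. The libraries share surgery and in part runs, and some may share mice, so these values are descriptions.

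**Figure D4:**
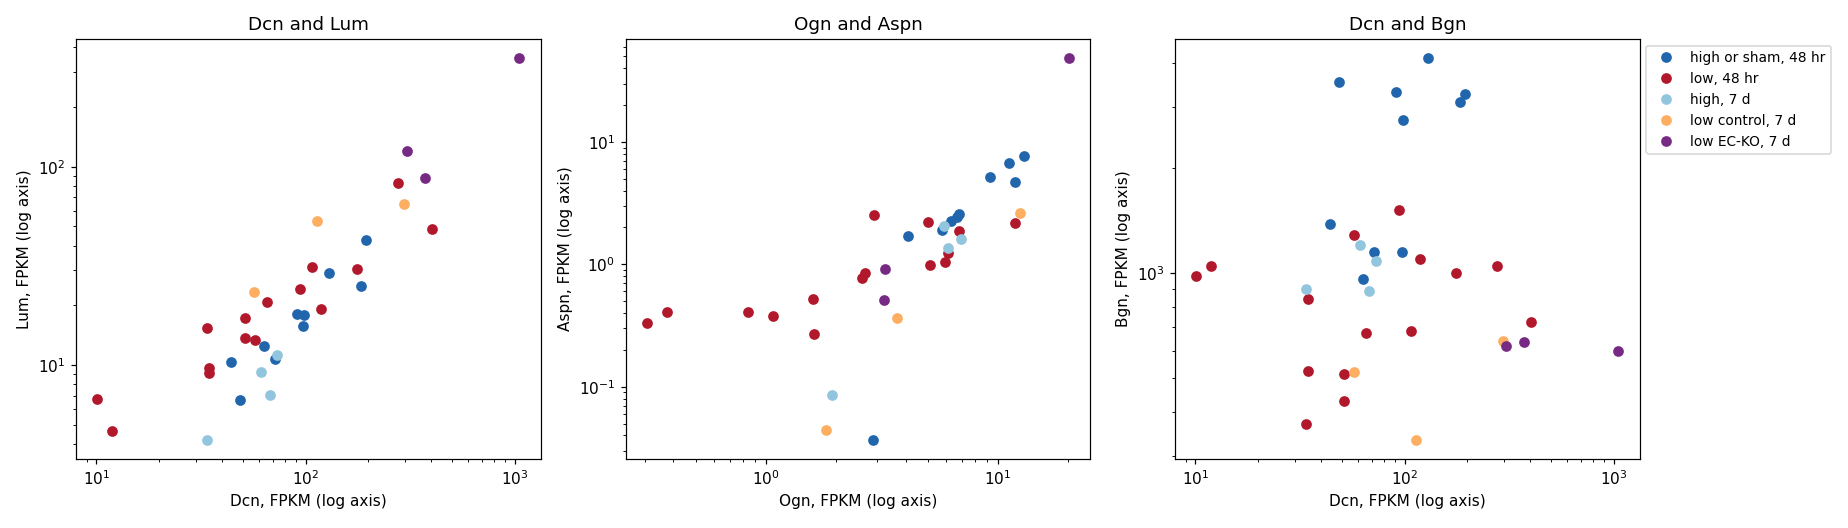
FPKM of Dcn against Lum, Ogn against Aspn and Dcn against Bgn (all log axes) in 35 artery libraries, coloured by flow, time and genotype. Points of Dcn and Lum follow a line from 10.1 to 1054 FPKM of Dcn, and those of Dcn and Bgn do not.

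Genes outside the family with the most similar pattern were sought among those of at least 1 FPKM on average. For the mean of the 7 standardised levels these were Mfap4, a microfibril protein, at r = 0.885 over 35 libraries, Dpt (dermatopontin, a decorin-binding matrix protein) at 0.865, Tcp11l2 at 0.855, Cd200 at 0.838 and Sord at 0.831. For Ogn, Mfap4 led with 0.933 and Dpt followed with 0.879, and for Aspn Lrrc17 led with 0.808 before Mfap4 with 0.803. C1s, a complement protease, led for Dcn with 0.908. For Lum Pamr1 led with 0.854, before Itih5 at 0.824, C1qa at 0.815 and Postn, the matrix protein periostin, at 0.806. For Prelp, Sepp1, a selenium carrier, was at 0.933. For Bgn the list held none of these genes, with Map3k1, a signalling kinase, at 0.949, the tetraspanin Cd81 at 0.936 and the G protein subunit Gnaq at 0.929. Levels of Bgn differed between the sets, with group means of 3300 and 3399 FPKM in untreated high-flow and sham pools and 895 to 1266 in the other high-flow groups. Within the untreated, depletion and 7 d sets Map3k1 was at 0.974, 0.922 and 0.896 with Bgn, and Cd81 at 0.912, 0.817 and 0.850. Mfap4 was at 0.985, 0.942 and 0.892 with Ogn, while Postn was at 0.912, 0.525 and 0.835 with Lum. For Fmod no gene passed an r of 0.693, that of Plk2.

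Of the 11 other genes of the family 2 to 7 were tested in a comparison, and Ecm2 and Omd, which lie in the cluster of Ogn and Aspn, were the ones called most often. Ecm2 was at 2.80 to 15.2 FPKM in untreated low-flow pools and 57.9 to 76.7 at high flow. These did not overlap, as for 39.4% of genes that were lower without overlap. The log2 fold-change of Ecm2 was −2.68 untreated (adjusted p = 7.12e-05), −2.85 against sham (adjusted p = 0.00161), −1.98 after IgG (adjusted p = 0.00919) and −2.36 after PBS liposomes (adjusted p = 0.00485), all by edgeR. In this order 22.6%, 19.7%, 17.7% and 15.5% of all genes were called lower. Omd (osteomodulin) was at 0.561 to 15.4 FPKM against 26.4 to 29.6, and fell by 1.73 on the log2 scale untreated (adjusted p = 0.0152), by 2.11 against sham (adjusted p = 0.0192) and by 1.77 after PBS liposomes (adjusted p = 0.0397, edgeR). After anti-GPIba both rose over IgG, Omd to 33.2 and 34.8 FPKM from 6.05 and 7.33 (log2 fold-change 2.32, adjusted p = 0.0333) and Ecm2 to 71.9 and 77.8 from 17.2 and 31.2 (1.60, adjusted p = 0.0446, edgeR). Of all genes 6.05% were called higher there. Tsku, a family member that binds growth factors, went the other way at low flow, by 1.70 untreated (adjusted p = 0.0484 by edgeR) and after IgG (adjusted p = 0.0409), where it was at 1.13 and 1.21 FPKM against 0 and 0.218. In these 2 comparisons 23.6% and 22.8% of all genes were called higher. At 7 d none of the 6 tested was called.

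Among genes that work with the family, collagen fibril partners moved both ways in the untreated pools, with 2 of 11 tested higher and 4 lower at low flow. Col14a1, which decorates fibrils, fell by 1.76 on the log2 scale, Col5a2 rose by 1.76 and Col1a2 fell by 1.60. Of 11 TGF-beta partners 2 rose and 6 fell, with Ctgf at 4.001 and the latency protein Ltbp4 at −2.14. Of 8 receptors tested 3 rose, Cd14 at 3.11, Kdr at 2.49 and Met at 0.91. Of 8 proteases and processing proteins 2 rose and 2 fell, with the proteoglycan-cleaving Adamts4 at 2.29 to 4.91 FPKM against 0.0624 to 0.140, Mmp14 at a log2 change of 2.13 and the procollagen enhancer Pcolce2 at −1.89. Of 15 genes for chondroitin and dermatan sulfate chains 4 rose, led by the epimerase Dse at 1.78, Chsy1 at 1.30 and Chst7 at 1.24, and 2 fell. Of 3 for keratan sulfate Chst1 rose by 1.52 and B4galt4 fell by 0.66. Of the large proteoglycans Vcan (versican) rose by 2.41, and all these calls are by edgeR with an adjusted p under 0.05, beside 23.6% and 22.6% of genes called.

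After anti-GPIba several of these genes were called in the other direction from low against high flow in the untreated pools. Vcan fell by 3.44 on the log2 scale and Mmp14 by 2.13, and Adamts4 fell to 0.0157 and 0.112 FPKM from 6.79 and 7.04. Col5a2 fell by 1.56 while Lox rose by 1.19. Col12a1 fell by 5.03, but it was not tested in the untreated pools. Of 12 TGF-beta partners 4 rose and 1 fell, beside 6.05% of all genes called higher and 10.5% lower, and among them Tgfbr3 rose by 2.30 and Ltbp1 by 1.66. Of 21 chondroitin sulfate genes none was called. B3gnt7, of keratan sulfate synthesis, fell to 0 and 0.0226 FPKM from 0.493 and 0.818, and it was not tested in the untreated pools either. Of 10 receptors Cd14 fell by 2.73. The IgG libraries serve both as the low-flow side of the flow comparison and as the control of the depletion, and the untreated pools do not enter it. At 7 d, where edgeR called 2.40% of all genes in controls and 1.09% in EC-KO, Mmp13 rose in EC-KO to 6.49 to 14.8 FPKM at low flow from no counts in either high-flow library. Ctgf rose there by 4.48 and Ltbp2 by 4.34, and in controls Ctgf rose by 3.86, Ltbp2 by 3.69, and Lox and Ltbp4 fell by 1.77 and 2.44 (edgeR).

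Cultured cells showed which members can be found without the artery wall, with 1 library per condition and no replicate check. In 3 primary endothelial preparations Bgn was the main member, with 527 FPKM in eGFP+ sorted cells, 735 in control and 612 in EC-KO cells. Dcn was at 10.8, 16.2 and 82.5 FPKM in this order. Lum was at 1.45, 0.960 and 0.104 and Ogn at 0.251, 2.81 and 0.798, and Prelp, Aspn and Fmod had 10 counts or fewer. Of the 11 fibroblast markers 4 or 5 were at 0 in each preparation, Dpt, Clec3b, Tcf21 and Dpep1 among them, and the others were detected. Tcf21 was also at 0 in all libraries of some artery groups. Fibroblast markers held 0.00605%, 0.00602% and 0.00401% of counts in the eGFP+, control and EC-KO cells, beside 0.00693% in untreated low-flow pools A and B. Endothelial markers held 0.358%, 0.502% and 0.557% in the same order of cells. Smooth muscle markers held 0.311%, 0.675% and 0.542%, more than the endothelial ones in the control cells, and their part in these levels was not tested.

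The immortalised line had a different make-up. Without treatment Bgn was at 384 FPKM, Ogn at 219, Lum at 108, Dcn at 100.1, Prelp at 29.4, Aspn at 9.83 and Fmod at 1.31. Ogn was thus more than 10 times its highest level in an artery, 20.3. Endothelial markers held 0.0266% to 0.0334% of counts in the 4 line libraries, with Pecam1 at 53.1 to 82.9 FPKM, Cdh5 at 1.86 to 5.75, Vwf at 0.446 to 0.771 and Erg at 0.0329 to 0.173, against 256 or more, 63.3 or more, 15.2 or more and 8.80 or more in primary cells. The label of an endothelial line is therefore only partly borne out by its markers.

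Cultures of the line with added blood components had lower levels of Dcn, Lum, Ogn and Prelp than the untreated culture in all 3 conditions. In the culture with plasma, platelets and macrophages together, Ogn was at 7.08 FPKM (95% Poisson interval 6.27 to 7.96, counting error only), Lum at 7.93, Dcn at 14.6, Prelp at 0.106 and Aspn at 0.885. With plasma alone, Ogn was at 113 FPKM, Lum at 22.5, Dcn at 13.8, Prelp at 11.6 and Aspn at 14.6, and with platelets and macrophages, at 112, 54.1, 38.7, 10.6 and 10.7. Bgn was at 560.0 FPKM with platelets and macrophages, 447 with plasma and 437 in the combined culture, above the untreated one. Fmod was at 2.40 FPKM with plasma and Aspn at its highest there, so these did not follow the other members. Macrophage markers held 0.0326% of counts with all 3 and 0.00218% without treatment, and their part was not tested.

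**Figure D5:**
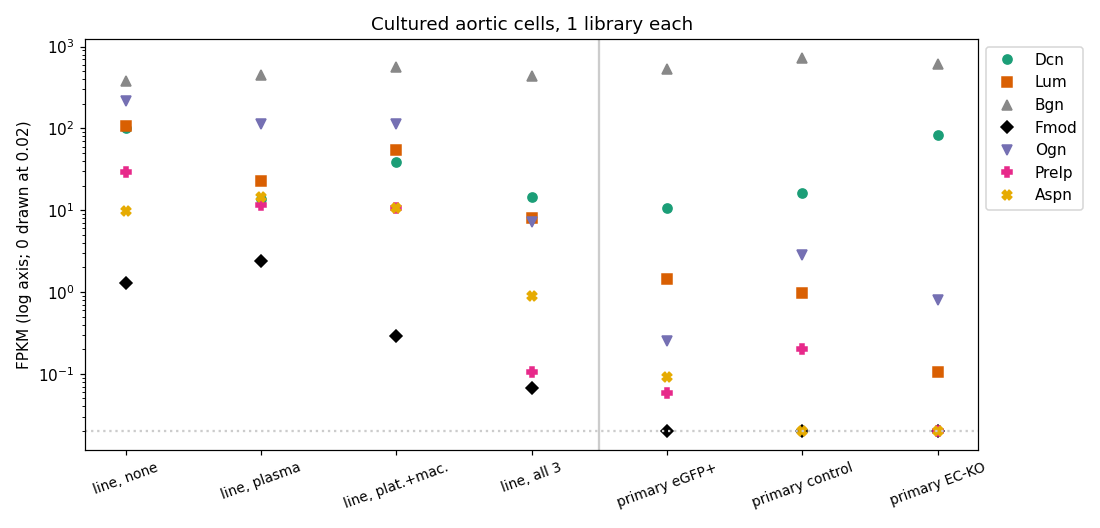
FPKM of each gene (log axis, with 0 drawn at 0.02) in 4 cultures of the aortic line and 3 primary preparations, with 1 library each. Bgn stays between 384 and 735 FPKM throughout, while Ogn runs from 219 in the untreated line to 0.251 in eGFP+ primary cells.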

How the data were processed

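Libraries were made by the authors with the Clontech SMARTer low input kit, which does not mark strand. The authors mapped reads to mm9 (submitters' notes: STAR 2.5.1b, RSEM 1.2.15; the methods name Tophat for the untreated pools) and deposited expected counts per gene, not normalized, with effective lengths. Of 204 value columns 149 were set aside at the start, 13 of them counts (repeat runs or columns not tied to a group by name) and the rest TPM and RPKM. Second-run counts of the 100 bp clodronate and PBS liposome pools and of the eGFP+ cells were not used either. Of 21675 rows 1 was left out, which pools transcripts under no gene name and holds no usable counts.

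FPKM were computed from the deposited expected counts, effective length and library total. Rounded counts were tested with edgeR 4.0.16 in R 4.3.3 (filterByExpr, TMM, quasi-likelihood test, Benjamini-Hochberg over all genes, adjusted p under 0.05). Untreated groups were fitted in pairs, the 7 depletion groups together and the 4 groups at 7 d together. The expected-count table, as deposited by the authors, gives depths of 4064477 to 19035957 per library, and intervals and floors of 3 counts cover counting error only. DESeq2 1.42.0, RLE scaling, library totals, no filter, blocks, trimmed reads and left-out libraries were alternatives. Python 3.11.15, pandas 2.3.3 and matplotlib 3.10.9 were used for the rest. In simulated untreated pools (11236 genes, 200 changed by a log2 of 2) edgeR recovered 199 with 12 other calls, and DESeq2 200 with 25. In simulated depletion libraries (13401 genes) edgeR recovered 172 with 3 other calls and DESeq2 189 with 44, and at 7 d (13352 genes) edgeR 173 with 4 and DESeq2 188 with 64. Changed genes were drawn from those at or above the median level, and libraries of a group shared 1 expected level per gene apart from depth and scaling. Recovery of genes below the median, or with 1 pool apart as pool C, was not simulated.

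Members and gene lists were chosen with earlier results of these data known. The rule for named genes was the 7 members whatever their values (not every change of each is printed), every called gene of the rest of the family, at most the 3 largest called changes of each other list, and the 5 genes of highest correlation (not all are printed). Column numbers paired the EC-KO and control low-flow libraries at 7 d (correlations of deviations 0.489, 0.170 and 0.272), and the block changed no member call there. The numbers 4 and 5 of the 7 d columns are not those of the sample labels. Values of 2 genes that the naming rule picks are not reported here.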

Additional observations from a re-analysis of the deposited data

Results flagged for a closer look

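The libraries of Dcn were ordered in opposite ways by flow in separate sets of mice, and neither change passed edgeR's test as fitted here. After PBS liposomes at 48 hr both low-flow libraries, at 51.2 and 33.7 FPKM, lay below both high-flow libraries, at 71.3 and 63.5, and the log2 fold-change was −0.56 (SE 0.61, adjusted p = 0.499 by edgeR), where 38.9% of genes were lower without overlap. With the replicate number as a block it was −0.62 and called (adjusted p = 0.0323 by edgeR). In EC-KO mice at 7 d all 3 low-flow libraries, at 372, 1054 and 305 FPKM, lay above both high-flow libraries, at 33.8 and 67.4, and the log2 fold-change was 3.51 (SE 0.81, adjusted p = 0.0750 by edgeR), where 21.1% of genes were higher without overlap. DESeq2 called it, at 3.55 (adjusted p = 6.73e-06), as did edgeR with both groups alone (adjusted p = 0.0255), without a filter (adjusted p = 0.0482) and without the libraries numbered 1 (adjusted p = 0.0178). These sets were flagged because every library of one moved down and every library of the other moved up, and the difference between them was not tested. They also differ in genotype, age, treatment and sequencing run, which cannot be told apart from time. No group held the 4 libraries that a search for single outlying samples would need.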

How the results depend on the processing

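Of 83 tested changes of members, 9 passed the test, 1 of them that of Fmod for anti-GPIba, which is a description. Direction changed under some alternative for 22, none of them among the 8 other calls. The 83 include the changes of Fmod in the depletion set, where it passed the filter on low counts through the anti-GPIba libraries. The number of members called was 2 in untreated pools of low against high flow, 3 with DESeq2 (with Bgn), without a filter or with 3 groups fitted together (with Dcn), and 4 with library totals, where these fits called 11.5%, 15.3%, 23.4% and 27.4% of genes lower. Against sham it was 0, and 2 with DESeq2 (23.9% of genes), 1 without a filter (25.7%) and 5 with library totals (30.1%). After PBS liposomes it was 1, and 2 with DESeq2 (32.5%) or without a filter (27.3%) and 3 with the groups alone (42.3%). For anti-GPIba it was 3 with Fmod counted, 5 with the groups alone (34.5%), 4 with DESeq2 (22.1%) and 2 with trimmed reads (5.27% higher and 7.68% lower), and for anti-Gr1 0, and 1 with DESeq2 (0.852%). In controls at 7 d it was 1, 2 with DESeq2 (13.8%) or without the libraries numbered 1 (29.2%), both with Lum, and 0 with library totals (1.87%) or the groups alone (0.0234%). In EC-KO at 7 d it was 1, and 2, with Dcn, by DESeq2 (5.93%), without a filter (1.37%), with the groups alone (6.61%) or without the libraries numbered 1 (8.36%). For EC-KO against control at low flow it was 0, and 1 without those libraries (2.84%).

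With the replicate number as a block, 5 members were called after PBS liposomes, 6 for anti-GPIba with Fmod counted, 3 for anti-Gr1, 1 for clodronate and 2 in controls at 7 d, where these fits called 52.1%, 32.8%, 7.10%, 2.13% and 32.5% of genes. High-flow arteries were contralateral to ligated ones, so low-flow and high-flow libraries of a number may share mice, which the sources used here do not state for single libraries. The correlations of same-numbered libraries in these comparisons ran from −0.0682 to 0.416. The block turned Aspn to 0.85 after IgG, 0.12 for anti-GPIba and 0.0085 for anti-Gr1, and lost none of the calls made without it. At low flow between EC-KO and control, where numbers pair the libraries, it called 0 members, as did the fit without it. No paired analysis was possible because the columns carry letters in the untreated pools.

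Leaving out each library gave 0 to 5 called members in untreated pools, where these fits called 35.5% to 47.8% of genes. Against sham it gave 0 to 4, beside 21.9% to 41.8% of genes. Leaving out a low-flow library at 7 d gave 0 to 1 in controls (0.255% to 29.4% of genes) and in EC-KO (0.0826% to 0.113%). For EC-KO against control at low flow it gave 0 to 2 (0% to 11.1%). Counts are not given where 1 of 2 libraries of a group was left out, since a single library then stands for the group. Library totals turned Bgn to −0.0444 between high flow and sham, and Ogn to 0.00715 and Prelp to 0.0624 in controls at 7 d, and an added 100 bp pool turned Lum to 0.0850 for clodronate.

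Log2 changes that turned when a library was left out ranged, in untreated pools, from −1.07 to 0.0357 for Lum; between high flow and sham from −0.38 to 0.67 for Lum and −0.0872 to 0.15 for Bgn; after IgG from −0.85 to 0.36 for Dcn, −0.00272 to 0.68 for Lum and −1.73 to 5.32 for Aspn; and after PBS liposomes from −2.48 to 3.70 for Fmod. For depletion they ranged from −0.69 to 1.06 for Aspn with anti-GPIba, −0.84 to 0.90 for Aspn with anti-Gr1, and with clodronate from −0.37 to 1.37 for Dcn, −0.83 to 0.12 for Lum and −0.76 to 2.07 for Ogn. At 7 d they ranged in controls from −1.19 to 0.31 for Ogn and −1.04 to 0.46 for Prelp, and in EC-KO from −0.50 to 2.25 for Ogn and −0.33 to 7.59 for Aspn. Between EC-KO and control they ranged at low flow from −0.86 to 1.73 for Ogn and −0.48 to 6.30 for Aspn, at high flow from −1.07 to 0.01895 for Dcn, −1.72 to 0.23 for Ogn and −0.56 to 0.57 for Prelp, and in the interaction from −0.40 to 2.36 for Ogn. The cause of these changes was not tested. Library totals, trimmed reads, the added pool and the removal of libraries numbered 1 were chosen after seeing the data, and the other run of the untreated pools was not run.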
